A study of Mus musculus with 58 samples.

Results

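The genes described here encode subunits of the Polycomb repressive complexes PRC1 and PRC2. The set was defined by gene name and holds 10 genes: Ezh1, Ezh2, Eed, Suz12, Jarid2, Mtf2, Rnf2, Ring1, Pcgf6 and Cbx7. Of these, 9 were measured among 20177 genes, each as the sum of the 3′ intervals that share its Ensembl identifier. Cbx7 was not analysed here.

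PRC2 places methyl groups on lysine 27 of histone H3 (H3K27), and PRC1 adds ubiquitin to histone H2A. Both complexes repress developmental genes in embryonic stem cells, and many of the promoters they occupy also carry H3K4me3, the mark made by SET1/COMPASS complexes such as those that contain DPY30 and RBBP5. In PRC2, EZH1 and EZH2 are alternative catalytic subunits, EED binds the methylated histone and SUZ12 is the scaffold. JARID2 and MTF2 are accessory subunits that help to recruit the complex to CpG islands. In PRC1, RNF2 (RING1B) and RING1 (RING1A) are alternative ubiquitin ligases. PCGF6 defines 1 variant form of the complex, and CBX7 reads H3K27me3 in the canonical form.

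The study compared 3 modified lines of E14 mouse embryonic stem (mES) cells, which come from the 129/Ola strain. In DPY30–mAID cells, both Dpy30 alleles carried the mAID degron and OsTIR1 was present, so that auxin removed the protein. DPY30–mAID Kdm5a/b dKO cells had in addition lost Kdm5a and Kdm5b, which encode H3K4 demethylases, through Cas9 editing and clone picking. RBBP5–FKBP cells were a clonal line grown from a single sorted cell, in which dTAG-13 removed RBBP5. Because each line came from picked clones, a difference between lines cannot be told apart from a difference between clones.

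SLAM-seq was carried out after 0, 2, 8 and 24 h of ligand in DPY30–mAID and RBBP5–FKBP cells (n = 3 libraries per time) and after 0, 2, 4, 8, 24 and 48 h in dKO cells (n = 2). Cells were labelled with 100 µM 4-thiouridine (4SU) for 60 min. Reads with a T-to-C conversion (T>C reads) therefore report newly made, or nascent, RNA, whereas all reads report the total RNA present. The T>C reads used here held 1.03 to 1.32 conversions each on average, so reads with 1 conversion were included. The study instead counted reads with 2 or more. Part of the T>C reads can be background, since unlabelled libraries held some too. Quant-seq, the same 3′-end counting without a label, followed DPY30–mAID cells in 1 µM retinoic acid (RA) without LIF. It was sampled with DMSO at 0 h, 8 h and days 1, 2, 4 and 6 or with auxin at 8 h and days 1, 2, 4 and 6 (n = 2). The DMSO libraries of day 6 held identical values and were counted as 1 sample, so day 6 is given without a test. The study calls its SLAM-seq replicates biological. For Quant-seq the labels do not say that replicates were separate cultures, and its p-values may therefore measure technical spread alone.

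Each SLAM-seq library held 2013350 to 2806821 counted reads in DPY30–mAID, 1721185 to 2852331 in RBBP5–FKBP and 5931269 to 7792404 in dKO cells, and the Quant-seq libraries held 1264241 to 2543632. T>C reads made up 5.51% to 16.1% of reads in DPY30–mAID, 4.85% to 10.1% in RBBP5–FKBP and 2.04% to 5.27% in dKO cells, against 0.303% to 0.388% in the unlabelled Quant-seq libraries. The 8 h DPY30–mAID libraries stood apart, with 13.0%, 9.82% and 5.51% T>C reads against 15.3% to 16.1% at 0 h. The main nascent results are therefore also given relative to the T>C reads of each library. Kdm5a was at 26.0 to 27.5 reads per 1000000 counted reads (CPM) and Kdm5b at 109 to 151 CPM in untreated dKO cells, against 74.5 to 106 and 906 to 946 CPM in untreated DPY30–mAID cells by SLAM-seq. Quant-seq of untreated DPY30–mAID cells gave 40.9 to 46.1 and 299 to 343 CPM, nearer to the dKO values. The gap in SLAM-seq therefore cannot be told apart from the library set. The position of the edits relative to the counted 3′ intervals was not checked, and the degrons act on protein, so transcripts of Dpy30 and Rbbp5 do not check those labels. A list of 6 mES cell markers summed to 5739 to 8484 CPM over all untreated libraries, and none of the 6 was at 0. A list of 6 fibroblast genes, which marks feeder cells, summed to 0.35 to 6.9 CPM in DPY30–mAID and RBBP5–FKBP, 12.7 to 25.0 CPM in dKO and 3.2 to 45.2 CPM in Quant-seq libraries, with Col3a1, Postn and Lum mostly at 0. In the DMSO libraries at 0 h, which gave 35.0 to 45.2 CPM, only Col1a1 and Thy1 of that list had reads.

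The promoters of most of these genes are CpG-rich, the promoter class on which H3K4me3 and Polycomb proteins are both found. In RefSeq promoters of 300 bases (250 before the start and 50 after it), searched for the letters CG, the median of 32851 mouse promoters was 7. Suz12 held 41 CG pairs, a number reached by 3.46% of promoters, Ring1 held 37 (5.58%), Ezh2 31 (10.6%), and Rnf2 and the first Mtf2 promoter 30 each (11.7%). The first Jarid2 promoter held 24 (20.0%), Ezh1 23 (21.5%), Pcgf6 22 (23.1%) and Eed 17 (31.4%), while the second Mtf2 promoter, inside the gene, held 2 (85.9%). The 30 bases around the start (15 on each side, 5′ to 3′ on the gene's strand, CG in capitals) are shown for the genes that the results turn on. This is a description of the sequence, and no binding or methylation was measured here.
Jarid2, chr13:44730759-44730788, plus strand: agccattttgtagtcaagggactacaactt
Mtf2, chr5:108065659-108065688, plus strand: ctctggagagctgccattCGgcccCGgagt
Rnf2, chr1:151500977-151501006, minus strand: cccttcccctaCGccaggggcctcccCGCG
Ezh2, chr6:47595016-47595045, minus strand: ggCGattgggttgctgCGtttggCGctCGg
Suz12, chr11:79993091-79993120, plus strand: tagggtgagCGgcctcCGaagCGgagCGgg
The windows of Mtf2, Rnf2, Ezh2 and Suz12 held CG pairs, for Rnf2 mostly at the far end of the window. The Jarid2 window held none although its whole promoter was CpG-rich. Coordinates are from GRCm38.p6.

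In the annotation (GRCm38), Ezh1 lies at chr11:101191115-101226463, Ezh2 at chr6:47530139-47595341, Eed at chr7:89954654-89980983, Suz12 at chr11:79993106-80034123, Jarid2 at chr13:44729474-44921643, Mtf2 at chr5:108065674-108109004, Rnf2 at chr1:151458004-151500955, Ring1 at chr17:34020792-34024680 and Pcgf6 at chr19:47033617-47050906. The counted intervals are annotated 3′ untranslated regions (UTRs). Nearly all Jarid2 (98.1%) and Eed (99.8%) reads and most Suz12 (88.7%) and Ezh1 (77.5%) reads fell in 1 interval. Ezh2 and Mtf2 each had 13 intervals, and their reads were spread out. An internal interval at chr6:47554124-47554264 held 35.1% of Ezh2 reads and the terminal one 24.7%. Another internal interval, at chr5:108100813-108100983 held 56.4% of Mtf2 reads. Reads that align to several places made up 37.6% of Suz12 reads in SLAM-seq and 60.1% in Quant-seq, and at most 1.49% of those of any other gene but Jarid2. For Jarid2 they were 2.77% to 4.68% of reads in DPY30–mAID and RBBP5–FKBP libraries, 11.2% to 14.3% in dKO libraries and 5.53% to 9.31% in Quant-seq libraries. The levels of Suz12 are therefore uncertain where copies share its sequence. Ring1 was barely detected, with 238 reads over all SLAM-seq libraries and 227 over all Quant-seq libraries.

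Before ligand was added, most of the measured Polycomb genes carried a higher rate of T-to-C conversion than the median gene. Over all genes, 1.05% ± 0.04 of covered T positions were converted in DPY30–mAID (SD, n = 3), 0.593% ± 0.04 in RBBP5–FKBP (n = 3) and 0.503% ± 0.04 in dKO cells (n = 2). Among genes with at least 100 reads, with libraries of a line pooled, the median gene was at 1.19%, 0.608% and 0.520%. The rate lay above that median for 7 of 8 members in DPY30–mAID, 6 of 7 in RBBP5–FKBP and 6 of 8 in dKO cells. Mtf2, whose product binds CpG-rich DNA, was the highest per covered T position in the 3 lines, at 2.33% ± 0.06, 1.56% ± 0.46 and 1.41% ± 0.04, above 95.5%, 96.0% and 91.5% of genes. By T>C reads as a share of a gene's reads it was not the highest. That share was 24.5%, 16.1% and 9.27% for Mtf2, against 40.4%, 25.8% and 14.9% for Rnf2. The conversion rate of Rnf2, the main ligase of PRC1, was 2.14% ± 0.27, 1.23% ± 0.29 and 1.15% ± 0.18. Jarid2 was at 1.90% ± 0.12 in DPY30–mAID and 1.26% ± 0.12 in RBBP5–FKBP, within 1 SD of Rnf2 in both lines, and at 0.569% ± 0.14 in dKO cells. Eed (1.77% ± 0.19 in DPY30–mAID) was within 1 SD of Jarid2 in that line, and Suz12 (1.45% ± 0.03) lay lower. Pcgf6 (2.17% ± 0.75) and Ezh1 (1.61% ± 0.52) had too large a spread to be placed. Ezh2, the main catalytic subunit in mES cells, was close to or below the libraries as a whole, at 1.04% ± 0.25, 0.441% ± 0.07 and 0.472% ± 0.11, above 42.5%, 32.9% and 45.1% of genes. These rates are a description with no test, and they depend on each line's labelling, so they are compared between genes within a line and not between lines.

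**Figure D1:**
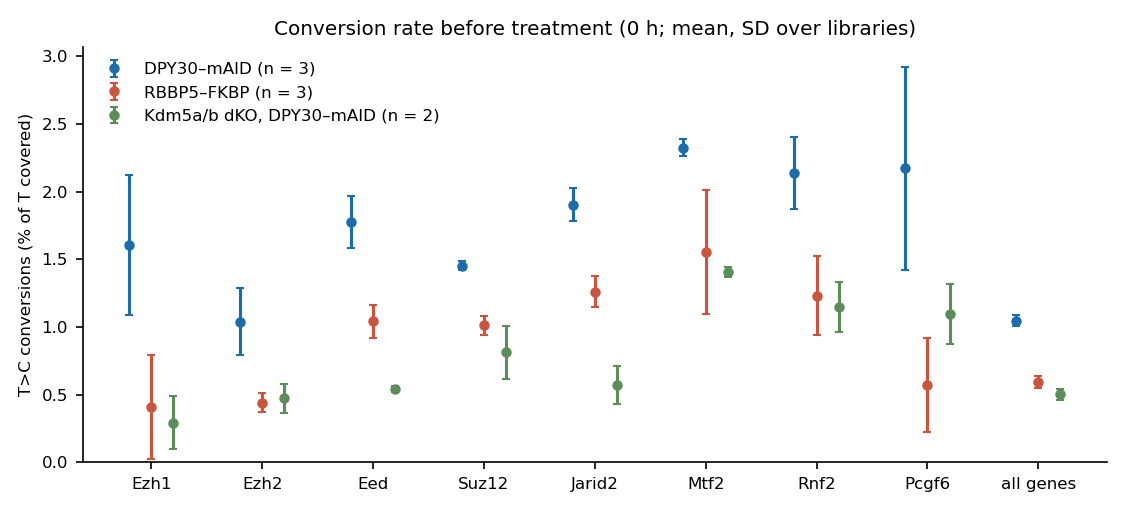
T-to-C conversions as a percent of covered T positions before treatment, for all genes together and each Polycomb gene except Ring1, as mean and SD over libraries of DPY30–mAID (n = 3), RBBP5–FKBP (n = 3) and Kdm5a/b dKO cells (n = 2). Mtf2 had the highest mean in each line, and Ezh2 lay at or below the value of all genes (1.05%, 0.593% and 0.503%).

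Loss of DPY30 was followed by a fall of nascent Jarid2 RNA that was already large at 8 h and still present at 24 h. In DPY30–mAID cells, Jarid2 had 783, 718 and 786 T>C reads, in CPM of all reads in the library, at 0 h, 594, 594 and 612 at 2 h, 335, 204 and 125 at 8 h and 269, 306 and 286 at 24 h. Every library at 2, 8 and 24 h lay below every library at 0 h. Mtf2 had 129, 118 and 121 T>C CPM at 0 h, 74.1, 41.1 and 29.6 at 8 h, and 162, 172 and 143 at 24 h, so that it was low at 8 h and above its starting level at 24 h. For Rnf2 the values were 81.0, 77.3 and 93.1 at 0 h, 36.2, 42.6 and 18.7 at 8 h, and 54.2, 86.3 and 50.5 at 24 h, with overlap between 24 h and 0 h. Ezh2 (34.7, 37.4 and 51.4 at 0 h, 44.1, 44.1 and 50.9 at 24 h) overlapped its starting values at both 8 h and 24 h. Suz12 had 225, 213 and 238 at 0 h, 131, 145 and 58.3 at 8 h, and 166, 194 and 176 at 24 h. Its libraries at both later times lay below those of 0 h. Eed had 106, 105 and 104 at 0 h, 112, 66.8 and 31.0 at 8 h, and 146, 135 and 139 at 24 h. Eed was above 0 h in all 3 libraries at 24 h. The mES cell markers summed to 7627 to 8484 CPM of all reads at 0 h, 6213 to 6894 at 8 h and 6914 to 7521 at 24 h, without overlap with 0 h, and their part in these values was not tested. At 8 h the values of Jarid2, Mtf2 and Eed, among others, followed the order of those libraries' T>C shares.

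By edgeR's quasi-likelihood test over 6317 genes with Benjamini–Hochberg adjustment, 0 of 8 tested members passed at 2 h (0 by unadjusted p below 0.05 and 0 by DESeq2), and the share of all genes called was 0%. At 8 h, 4 of 8 fell, against 16.1% of all genes called lower. Jarid2 fell by 1.89 on the log2 scale (SE 0.28, adjusted p = 9.15e-06), Rnf2 fell by 1.47 (SE 0.33, adjusted p = 0.00178), Mtf2 fell by 1.45 (SE 0.30, adjusted p = 0.00107) and Suz12 fell by 1.12 (SE 0.29, adjusted p = 0.00584). The median log2 change was -1.07 over the 8 members and -0.72 over all genes. The T>C share of these libraries was low, as stated above, and its part in the result was not tested. Relative to the T>C reads of each library, 3 of 8 fell, against 3.37% of all genes on that scale. Jarid2 fell by 1.19 (adjusted p = 1.33e-12), Mtf2 fell by 0.74 (adjusted p = 0.00507) and Rnf2 fell by 0.74 (adjusted p = 0.0338), while Suz12 was at -0.40 (adjusted p = 0.104). Of the other members, Ezh1 (-1.01), Pcgf6 (-0.78), Eed (-0.69) and Ezh2 (-0.64) did not pass. On the T>C scale those 4 were at -0.25, -0.15, -0.04 and 0.13.

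At 24 h Jarid2 was the 1 member of 8 that fell, by 1.42 (SE 0.28, adjusted p = 0.00128), where 2.72% of all genes were called lower and the median of all genes was -0.14. Relative to the T>C reads of each library it fell by 1.30, and Eed (0.52, adjusted p = 0.0338) and Mtf2 (0.48, adjusted p = 0.0403) rose. On that scale 6.68% of all genes were called lower and 6.9% higher.

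**Figure D2:**
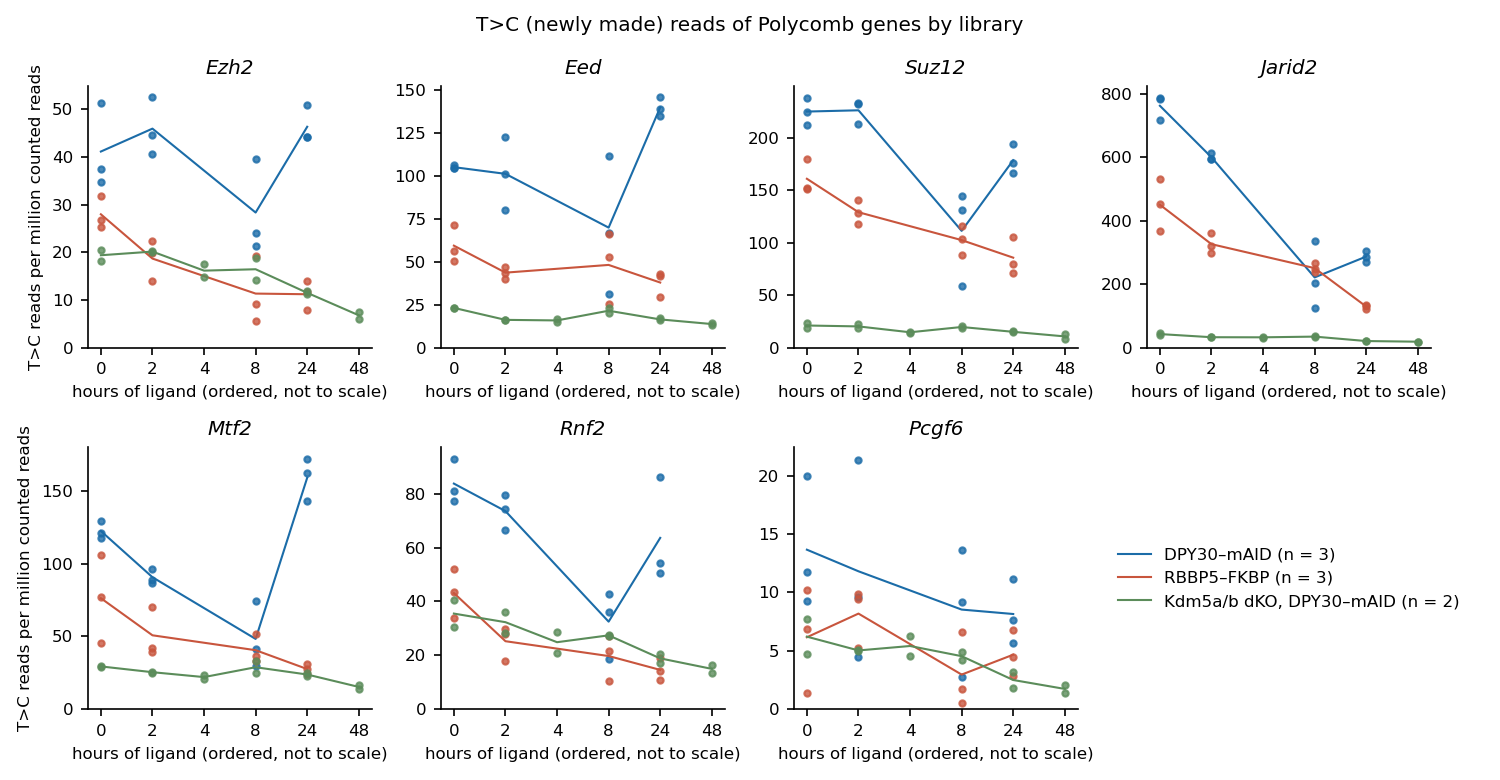
T>C reads in CPM of all reads (vertical axes, starting at 0) against hours of ligand in order, 1 panel per gene, with points for libraries and lines for means in DPY30–mAID, RBBP5–FKBP and Kdm5a/b dKO cells. Jarid2 fell in each line (in dKO cells not when scaled on T>C reads), and Mtf2 in DPY30–mAID cells was low at 8 h and at 162, 172 and 143 at 24 h.

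After loss of RBBP5, 5 members fell in nascent RNA at both 8 h and 24 h: Jarid2, Mtf2, Rnf2, Ezh2 and Suz12. Jarid2 had 531, 367 and 453 T>C CPM at 0 h, 320, 298 and 361 at 2 h, 246, 266 and 239 at 8 h, and 123, 132 and 133 at 24 h. The Mtf2 values were 106, 77.5 and 45.4 at 0 h, 51.8, 33.2 and 36.6 at 8 h, and 31.0, 24.2 and 27.5 at 24 h, with 1 low library at 0 h that overlapped the 8 h values. Rnf2 had 43.4, 52.2 and 33.8 at 0 h, 10.4, 21.6 and 27.2 at 8 h, and 10.6, 19.1 and 14.0 at 24 h, without overlap. Ezh2 had 31.9, 25.2 and 26.9 at 0 h, 9.22, 5.53 and 19.3 at 8 h, and 7.97, 11.7 and 14.0 at 24 h, also without overlap. For Suz12 the values were 152, 151 and 180 at 0 h, 103, 116 and 88.3 at 8 h, and 80.2, 106 and 71.3 at 24 h. Eed had 50.3, 56.5 and 71.2 at 0 h and 29.2, 42.9 and 41.5 at 24 h. The mES cell markers summed to 5770 to 5864 CPM of all reads at 0 h, 5608 to 6111 at 8 h and 5658 to 5691 at 24 h.

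At 2 h, 0 of 7 tested members passed the edgeR test over 4761 genes (3 at an unadjusted p below 0.05, 1 by DESeq2), and 0.252% of genes were called lower. At 8 h, 5 of 7 fell, against 7.52% of genes called lower and a median of -0.49 over all genes. Jarid2 fell by 0.89 (SE 0.16, adjusted p = 5.91e-05), Suz12 fell by 0.69 (SE 0.20, adjusted p = 0.0215), Mtf2 fell by 0.96 (SE 0.28, adjusted p = 0.0231), Rnf2 fell by 1.16 (SE 0.34, adjusted p = 0.0260) and Ezh2 fell by 1.33 (SE 0.41, adjusted p = 0.0344). Jarid2 passed with any 1 of the 6 libraries left out, whereas the other 4 calls rested on single libraries. Ezh2 was lost without any 1 library except 8 h replicate 3 (adjusted p up to 0.189), Mtf2 without 0 h replicate 1 or 2 or 8 h replicate 2 or 3 (up to 0.228), Rnf2 without 0 h or 8 h replicate 1 or 2 (up to 0.184) and Suz12 without 0 h replicate 3 or 8 h replicate 1 or 3 (up to 0.112). Relative to each library's T>C reads, 0 of 7 passed by edgeR at 8 h (2 at an unadjusted p below 0.05; DESeq2 was not run on that scale), where 0.798% of genes were called lower. The changes were then between -0.87 for Ezh2 and 0.09 for Eed.

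At 24 h, Jarid2 fell by 1.83 (SE 0.16, adjusted p = 2.66e-14), Rnf2 fell by 1.59 (SE 0.35, adjusted p = 3.84e-04), Mtf2 fell by 1.50 (SE 0.28, adjusted p = 4.07e-05), Ezh2 fell by 1.35 (SE 0.41, adjusted p = 0.0107) and Suz12 fell by 0.94 (SE 0.20, adjusted p = 2.30e-04). In this comparison 25.9% of genes were called lower, the median over all genes was -0.91 and that over the 7 members was -1.35. Eed was at -0.68 (adjusted p = 0.056). The call of Ezh2 was lost without replicate 1 of 24 h (adjusted p = 0.0669), and in its most 3′ interval alone the change was -0.49 (adjusted p = 0.67). Relative to each library's T>C reads, Jarid2 was the only member of the 7 that fell, by 0.93 (adjusted p = 2.08e-04), where 1.09% of genes were called lower.

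In dKO cells 6 of 7 tested members fell at 24 h and 7 of 7 at 48 h, where 42.2% and 72.3% of all genes were called lower. Jarid2 had 38.5 and 46.7 T>C CPM at 0 h, 32.8 and 32.6 at 2 h, 34.4 and 30.4 at 4 h, 32.6 and 36.6 at 8 h, 21.6 and 19.7 at 24 h and 18.6 and 18.6 at 48 h. Ezh2 had 18.2 and 20.5 at 0 h, 18.8 and 14.1 at 8 h, and 7.47 and 6.09 at 48 h. Suz12 had 18.4 and 23.7 at 0 h and 8.54 and 12.8 at 48 h. Both genes were lower at 48 h than at 0 h in each library. Rnf2 went from 30.4 and 40.5 at 0 h to 27.2 and 27.7 at 8 h and 13.6 and 16.3 at 48 h. Pcgf6, the subunit of a germline-gene-repressing PRC1 variant, had 4.71 and 7.70 at 0 h and 1.37 and 2.08 at 48 h. For each of these genes both values at 48 h were below both at 0 h. The mES cell markers summed to 5739 to 5982 CPM of all reads at 0 h, 4855 to 4896 at 24 h and 5119 to 5245 at 48 h, and their part was not tested.

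Over 5965 genes, 0 of 7 tested members passed at 2 h by edgeR (2 at an unadjusted p below 0.05, 0 by DESeq2; 0% of genes called), 0 at 4 h (5 and 0; 0.453% called lower) and 0 at 8 h (1 and 0; 1.12% called lower). At 24 h, 6 of 7 fell, where 42.2% of all genes were called lower: Pcgf6 fell by 1.37, Jarid2 fell by 1.10, Rnf2 fell by 0.97, Ezh2 fell by 0.81, and Eed and Suz12 fell by 0.55 each. The medians were -0.81 over the members and -0.80 over all genes. The calls of Suz12 and Eed were lost without 0 h replicate 2 or either 24 h library (adjusted p up to 0.343 and 0.101), and that of Pcgf6 without replicate 2 of 0 h or 24 h (up to 0.113). At 48 h, 7 of 7 fell, from Eed (-0.84) to Pcgf6 (-1.94), where 72.3% of genes were called lower and the medians were -1.29 over the members and -1.29 over all genes. Relative to each library's T>C reads, 0 of 7 passed by edgeR at 24 h or 48 h (2 and 1 at an unadjusted p below 0.05; DESeq2 was not run on that scale), with 6.14% and 6.76% of genes called. Suz12 and Eed (0.25 and 0.24 at 24 h) and Suz12, Mtf2, Eed and Jarid2 (0.23, 0.27, 0.46 and 0.02 at 48 h) were then above 0.

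**Figure D3:**
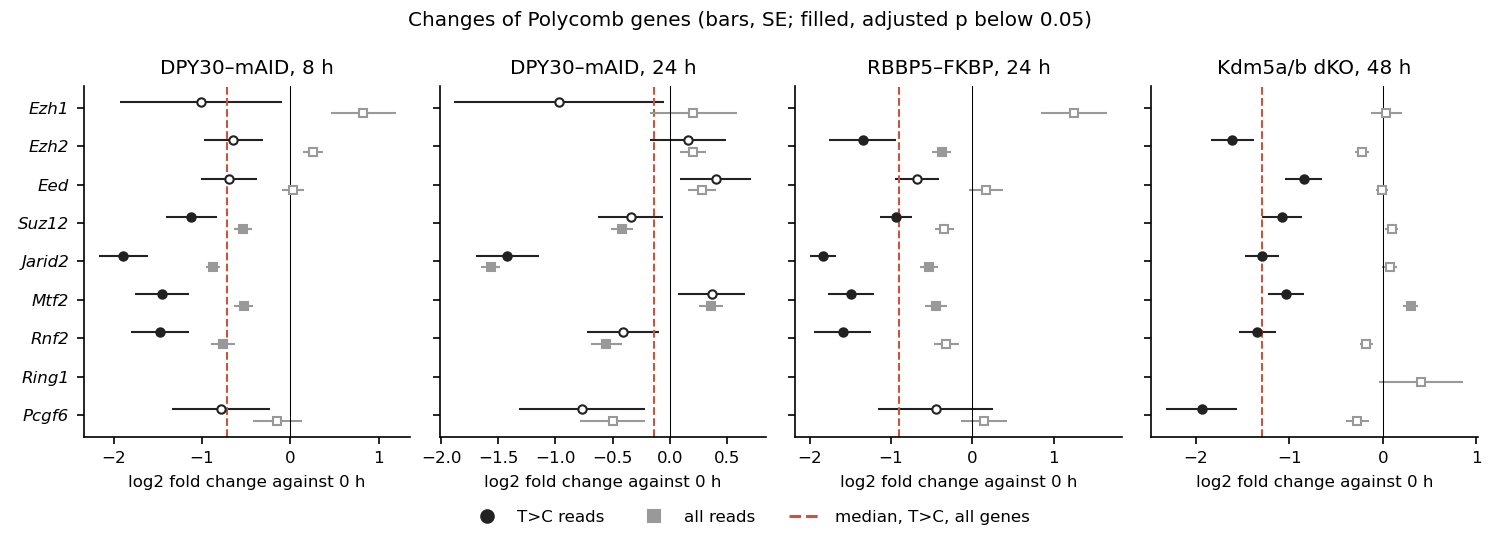
Log2 fold changes against 0 h (horizontal axes) with SE bars for each Polycomb gene in T>C reads (circles) and all reads (squares), in 1 panel per line and time, filled where the adjusted p was below 0.05, with the median T>C change over all genes as a dashed line. The T>C change of Jarid2 lay left of that median in DPY30–mAID at 8 h (-1.89 against -0.72) and RBBP5–FKBP at 24 h (-1.83 against -0.91).

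The total RNA of Jarid2 fell after loss of either protein, and that of Mtf2 rose in DPY30–mAID and fell in RBBP5–FKBP cells at 24 h. The RBBP5–FKBP call was lost without most single libraries, and the difference between the lines in total RNA was not tested. In DPY30–mAID cells, Jarid2 was at 2323, 2412 and 2451 CPM at 0 h, 2084, 2090 and 2216 at 2 h, 1338, 1345 and 1546 at 8 h, and 811.9, 850.1 and 786.2 at 24 h. In RBBP5–FKBP cells it was at 2266, 1796 and 2064 CPM at 0 h, 1894, 1931 and 1678 at 8 h, and 1482, 1469 and 1385 at 24 h, and only the 24 h libraries lay below all 0 h libraries. Mtf2 in DPY30–mAID cells was at 530, 464 and 511 CPM at 0 h, 368, 334 and 424 at 8 h and 628, 693 and 626 at 24 h. Thus the 8 h libraries were all below, and the 24 h libraries all above, the 0 h libraries. In RBBP5–FKBP cells Mtf2 was at 573, 427 and 390 CPM at 0 h, 412, 399 and 358 at 8 h and 337, 345 and 357 at 24 h. Total RNA per library is on a relative scale, so fewer molecules per cell in every gene would not show.

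In DPY30–mAID cells 0 of 8 members passed at 2 h over 9848 genes by edgeR (1 at an unadjusted p below 0.05, 0 by DESeq2; 0.0305% of genes called). At 8 h, 4 of 8 fell, with 7.85% of genes called lower: Jarid2 fell by 0.87 (SE 0.08, adjusted p = 8.66e-12), Rnf2 fell by 0.76 (SE 0.14, adjusted p = 6.94e-05), Suz12 fell by 0.54 (SE 0.10, adjusted p = 9.36e-05) and Mtf2 fell by 0.52 (SE 0.11, adjusted p = 3.98e-04). These were the members that also fell in nascent RNA at 8 h. At 24 h, 3 fell, with 17% of genes called lower: Jarid2 fell by 1.56 (SE 0.08, adjusted p = 3.16e-21), Rnf2 fell by 0.55 (SE 0.14, adjusted p = 0.00116) and Suz12 fell by 0.42 (SE 0.10, adjusted p = 7.00e-04). Mtf2 rose by 0.36 (SE 0.11, adjusted p = 0.00604), with 15.9% of genes called higher. For Suz12, uniquely aligned reads alone gave 552 ± 88.5 CPM at 0 h, 416.5 ± 48.5 at 8 h and 430.3 ± 37.6 at 24 h (SD, n = 3).

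In RBBP5–FKBP cells 0 of 8 members passed at 2 h over 9676 genes by edgeR (0 at an unadjusted p below 0.05, 0 by DESeq2; 0% of genes called). At 8 h, 3 fell, with 4.96% of genes called lower: Rnf2 fell by 0.48 (adjusted p = 0.0497), Suz12 fell by 0.44 (adjusted p = 0.0200) and Ezh2 fell by 0.42 (adjusted p = 0.0242). At 24 h, 3 fell, with 4.34% of genes called lower: Jarid2 fell by 0.53 (adjusted p = 0.00285), Mtf2 fell by 0.45 (adjusted p = 0.0445) and Ezh2 fell by 0.37 (adjusted p = 0.0499). The 24 h call of Jarid2 held with any 1 library left out. That of Ezh2 was lost without any 1 library (adjusted p up to 0.138) and that of Mtf2 without any except 0 h replicate 3 (up to 0.247). At 8 h, Rnf2 was lost without any except 0 h replicate 1 (up to 0.167), Suz12 without 0 h replicate 3 or 8 h replicate 1 or 3 (up to 0.0963) and Ezh2 without 0 h replicate 2 or 8 h replicate 1 (up to 0.0908). Ezh1 was at 16.2, 9.12 and 11.6 CPM at 0 h and 31.4, 18.6 and 39.5 at 24 h, without overlap, a log2 change of 1.25 (SE 0.41) that did not pass (adjusted p = 0.0593).

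In dKO cells, total RNA of the members stayed near its starting level on this relative scale. Over 11394 genes, edgeR called 0 of 9 members at 2 h (0 at an unadjusted p below 0.05; 0% of genes called), 0 at 4 h (1; 0% called) and 0 at 8 h (0; 0.746% called), and DESeq2 also called 0 at each time. At 24 h Rnf2 fell by 0.26 (adjusted p = 0.0326), with 6.02% of genes called lower, and at 48 h Mtf2 rose by 0.30 (adjusted p = 0.0220), with 6.59% called higher. The Rnf2 call was lost without any 1 of the 4 libraries (adjusted p up to 0.190) and the Mtf2 call without replicate 2 of 0 h or 48 h (up to 0.102). Jarid2 was at 741.4 and 630.5 CPM at 0 h and 837.3 and 700.3 at 48 h.

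Whether an effect on nascent RNA differed between lines was tested directly as an interaction, and a difference that missed the threshold does not show that the lines responded alike. Between dKO and DPY30–mAID cells, 0 of 8 members differed at 2 h by edgeR over 6901 genes (0 at an unadjusted p below 0.05, 0 by DESeq2; 0% of genes called). At 8 h the effect on Jarid2 was higher in dKO cells by 1.53 on the log2 scale (SE 0.35, adjusted p = 0.0298), where 0.275% of genes were called higher and the median difference over all genes was 0.49. Relative to each library's T>C reads the difference was 1.10 (adjusted p = 1.26e-04), where 0.551% of genes were called higher. In the fit scaled on all reads the call was lost without any 1 of 7 of the 10 libraries. These were DPY30–mAID 0 h replicate 1 or 3, DPY30–mAID 8 h replicate 2, and each dKO library (adjusted p up to 0.365). At 24 h, 0 of 8 members differed (2 at an unadjusted p below 0.05, 0 by DESeq2; 3.25% of genes called). Relative to each library's T>C reads, however, Jarid2 differed at 24 h too, by 0.98 (adjusted p = 6.88e-04, against 0.30 on all reads), where 0.826% of genes were called higher. The libraries of the lines also differed in their share of T>C reads, and its part in the difference was not tested.

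Between RBBP5–FKBP and DPY30–mAID cells, 0 of 8 members differed at 2 h over 6404 genes by edgeR (0 at an unadjusted p below 0.05, 0 by DESeq2; 0% of genes called) and 0 at 8 h (1 and 0; 0.0937% called). At 24 h, 2 differed, with 8.17% of genes called lower and a median of -0.64 over all genes. The effect on Mtf2 was lower in RBBP5–FKBP cells by 1.87 (log2 difference -1.87, SE 0.41, adjusted p = 0.00100), which was -1.18 (adjusted p = 0.0197) relative to each library's T>C reads, where 2.33% of genes were called lower. It passed with any 1 library left out (adjusted p up to 0.0139) and in the interval with the most reads (-2.09, adjusted p = 0.00516). The most 3′ interval held 1.08% of Mtf2 reads, too few to be tested. The effect on Ezh2 was lower by 1.52 (-1.52, SE 0.52, adjusted p = 0.0481). That call was lost without any 1 of 9 of the 12 libraries (all except replicate 3 of DPY30–mAID 0 h, replicate 2 of RBBP5–FKBP 0 h and replicate 3 of RBBP5–FKBP 24 h; adjusted p up to 0.132), relative to T>C reads (-0.87, adjusted p = 0.35) and in the interval with the most reads (-0.88, adjusted p = 0.593).

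Untreated dKO and DPY30–mAID cells differed in several members, most of all in Suz12 and Jarid2. Jarid2 was at 741.4 and 630.5 CPM in dKO cells against 2323, 2412 and 2451 in DPY30–mAID cells, and Suz12 was at 228 and 219 against 832, 784 and 952 CPM. By edgeR over 11483 genes, 3 members were lower in dKO cells, with 21.6% of genes called lower: Suz12 (log2 difference -1.96, SE 0.10, adjusted p = 2.26e-17), Jarid2 (-1.83, SE 0.09, adjusted p = 1.96e-18) and Mtf2 (-0.68, SE 0.11, adjusted p = 2.00e-06). Ezh2 was higher (0.55, SE 0.10, adjusted p = 1.26e-05), with 24.7% of genes called higher. In the interval with the most reads alone, Mtf2 was instead higher in dKO cells (0.42, adjusted p = 0.00338).

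With uniquely aligned reads alone, Jarid2 was at 602 ± 80.2 CPM in dKO (SD, n = 2) and 2303 ± 66.6 in DPY30–mAID cells (n = 3), and Suz12 at 125.5 ± 0.23 and 552 ± 88.5. This difference cannot be told apart from the library set. The reads of dKO SLAM-seq covered fewer T positions each than those of the other SLAM-seq sets, as did the Quant-seq reads. Quant-seq of untreated DPY30–mAID cells, which have intact Kdm5a and Kdm5b, gave 1060 CPM for Jarid2, 310 for Suz12, 279 for Mtf2 and 496 for Ezh2. Those values lay nearer to the dKO means (686, 224, 317 and 447) than to the SLAM-seq means of the same line (2395, 856, 502 and 300).

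RA differentiation moved the members in different directions and at different times. With DMSO, Jarid2 was at 1056 and 1064 CPM at 0 h, 804.6 and 787.8 at 8 h, 355.4 and 324.5 at day 1, 772.6 and 787.9 at day 2, 1077 and 1116 at day 4 and 696.2 at day 6. Its level was thus lowest at day 1 and back at the starting level at day 4. Eed was at 429 and 437 CPM at 0 h, 314 and 281 at 8 h, 256 and 251 at day 1, 250 and 239 at day 2, 220 and 170 at day 4 and 144 at day 6, with a lower mean at each time than at the one before. Mtf2 was at 291 and 267 CPM at 0 h, 337 and 348 at 8 h, 368 and 374 at day 1, 238 and 251 at day 2, 146 and 167 at day 4 and 94.3 at day 6, so that it was highest at day 1. Rnf2 was at 177 and 184 CPM at 0 h and between 145 and 250 CPM at later times. In bulk samples, fewer cells of a type and less RNA per cell cannot be told apart. The 6 mES cell markers summed to 5868 to 6065 CPM at 0 h, 7222 to 7308 at day 1, 4103 to 4143 at day 2 and 3186 to 3198 at day 4, and were thus highest at day 1. At those times 10 RA-response genes summed to 97.5 to 104.8, 232.5 to 237.7, 880.2 to 912.6 and 1772 to 1779 CPM. Their part in the members' values was not tested.

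Over 11415 genes, edgeR called 4 of 9 members at 8 h, with 9.08% of genes called lower and 9.21% higher: Eed (fell by 0.48, adjusted p = 0.00462), Suz12 (fell by 0.46, adjusted p = 0.0251), Jarid2 (fell by 0.35, adjusted p = 0.0177) and Mtf2 (rose by 0.37, adjusted p = 0.0252). The calls of Jarid2 and Mtf2 were lost without any 1 of the 4 libraries (adjusted p up to 0.108 and 0.213), that of Suz12 without any except 0 h replicate 2 (up to 0.336) and that of Eed without 8 h replicate 2 (0.0859). At day 1, Jarid2 fell by 1.69 (adjusted p = 1.02e-12), Eed fell by 0.82 (adjusted p = 2.02e-06) and Suz12 fell by 0.62 (adjusted p = 9.08e-04), with 25.5% of genes called lower, and Mtf2 rose by 0.36 (adjusted p = 0.00979), with 26.2% called higher. The Suz12 call was lost without 0 h replicate 1 or day 1 replicate 2 (up to 0.112). At day 2, Eed fell by 0.91 (adjusted p = 4.74e-07), Ezh1 fell by 0.87 (adjusted p = 0.00590), Suz12 fell by 0.67 (adjusted p = 4.22e-04) and Jarid2 fell by 0.52 (adjusted p = 1.29e-04), with 22.9% called lower. Rnf2 rose by 0.31 (adjusted p = 0.0418), with 25.1% called higher, and that call was lost without any 1 of the 4 libraries (adjusted p up to 0.128), as was that of Ezh1 without 0 h replicate 2 or day 2 replicate 1 (up to 0.113).

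At day 4, 5 of 9 members fell, with 25.6% of genes called lower, and Jarid2 was at -0.10. Eed fell by 1.30 (adjusted p = 7.29e-10), Mtf2 fell by 0.99 (adjusted p = 1.19e-07), Pcgf6 fell by 0.68 (adjusted p = 0.0267), Ezh2 fell by 0.61 (adjusted p = 6.00e-06) and Suz12 fell by 0.49 (adjusted p = 0.00513). Ring1 was at 2.24 and 2.75 CPM at 0 h (5 and 7 reads) and 6.31 and 9.79 CPM at day 4 (14 and 21 reads). Its mean at 0 h was under the 10-read filter and it was tested only through other groups in which it was higher, so no call is drawn from it. The call of Pcgf6 was lost without any 1 of the 4 libraries (adjusted p up to 0.104), and that of Suz12 without 0 h replicate 1 or day 4 replicate 2 (up to 0.139). These comparisons share the 0 h libraries.

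**Figure D4:**
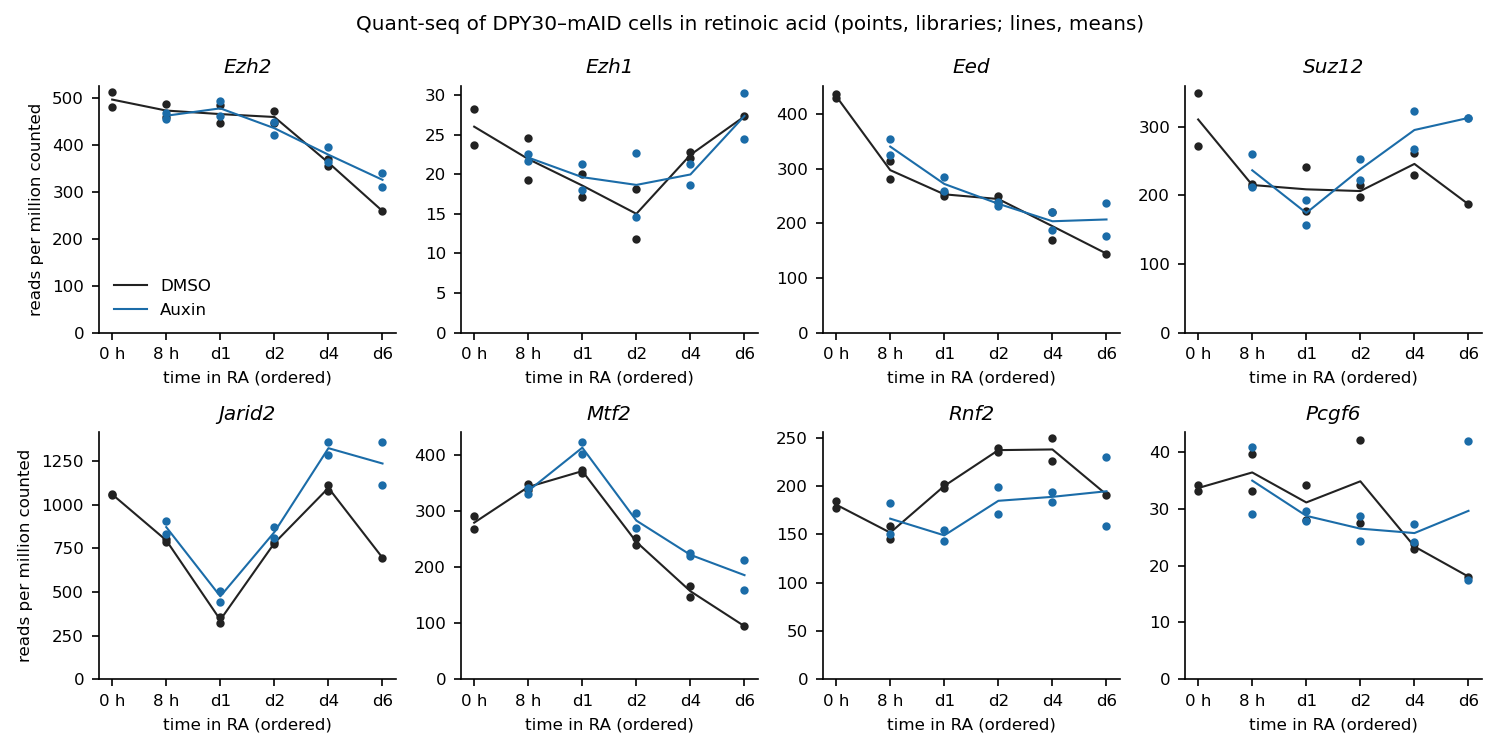
Quant-seq CPM (vertical axes, starting at 0) against time in RA in order, 1 panel per gene, with points for libraries and lines for means, for DMSO and auxin. Jarid2 reached its lowest value at day 1 in both treatments (355.4 and 324.5 CPM with DMSO, 504.9 and 444.7 with auxin), and Eed was lower at each later time than at 0 h.

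Few members responded to loss of DPY30 during RA differentiation. With auxin, Jarid2 was at 909.8 and 834.3 CPM at 8 h, 504.9 and 444.7 at day 1, 812.0 and 874.4 at day 2, 1363 and 1287 at day 4 and 1113 and 1361 at day 6, above both DMSO libraries of the same time throughout. Rnf2 with auxin was at 150 and 182 CPM at 8 h, 155 and 143 at day 1, 198 and 171 at day 2 and 184 and 194 at day 4, below both DMSO libraries at days 1, 2 and 4. The direction for Jarid2 in RA was thus the opposite of that in mES cells, where its reads fell after auxin, but the time points and media differ and the difference was not tested.

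At 8 h, edgeR called 0 of 9 members between auxin and DMSO (0 at an unadjusted p below 0.05, 0 by DESeq2; 0.762% of genes called). Jarid2 rose at day 1 by 0.53 (SE 0.11, adjusted p = 0.00266), with 4.27% of genes called higher. This was lost without DMSO replicate 2 (adjusted p = 0.0822) or auxin replicate 1 (0.123). Rnf2 fell by 0.44 at day 2 (adjusted p = 0.0209), with 7.39% of genes called lower, and by 0.51 at day 4 (adjusted p = 0.00531), with 10.4% called lower. The day 2 call was lost without DMSO replicate 1 or 2 or auxin replicate 2 (adjusted p up to 0.227), and the day 4 call without DMSO replicate 1 (0.0763) or auxin replicate 1 (0.0629). At day 1 Rnf2 was at -0.37 (adjusted p = 0.0886), and Mtf2 at day 4 was at 0.32 (adjusted p = 0.0717). The 6 mES cell markers summed to 4687 to 4736 CPM with auxin at day 1, 2942 to 2960 at day 2 and 1998 to 2051 at day 4, less than with DMSO at each of these times. The 10 RA-response genes summed to 292.2 to 304.0, 825.0 to 827.8 and 1197 to 1233 CPM with auxin, which was more than with DMSO at day 1 and less at days 2 and 4. The 6 fibroblast genes summed to 3.22 to 7.57 CPM with auxin against 4.88 to 6.61 with DMSO at day 1, 16.2 to 23.9 against 7.46 to 7.73 at day 2 and 34.8 to 35.6 against 9.33 to 14.9 at day 4, while DMSO at 0 h gave 35.0 to 45.2. Of that list Col3a1 and Postn were at 0 with auxin at day 2 and none at day 4. Their part in these values was not tested.

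The balance of alternative catalytic subunits was compared as the log2 ratio of their CPM. In RBBP5–FKBP cells the ratio of Ezh1 to Ezh2 was -5.10 ± 0.44 at 0 h, -4.03 ± 0.50 at 8 h and -3.54 ± 0.51 at 24 h (SD, n = 3). The differences of 1.07 and 1.56 had a two-sided exact permutation p of 0.1 each, the smallest that 3 against 3 libraries allow (adjusted p = 0.792 over 38 comparisons of 2 ratios). In DPY30–mAID cells the difference was 0.55 at 8 h (exact permutation p = 0.2) and -0.10 at 24 h (exact permutation p = 0.9), which was 0.50 in the intervals with the most reads. With 2 libraries per group the smallest possible p was 0.33, so no ratio could pass, and the ratio of Ring1 to Rnf2 rested on few Ring1 reads.

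Beside the 9 members, a list of 34 other Polycomb genes was counted. In nascent RNA of DPY30–mAID cells 7 of 22 tested genes fell at 8 h, against 16.1% of all genes, among them Rbbp7 (-1.89), Epop (-1.70) and Mga (-1.64), with a list median of -0.85. At 24 h 1 fell (2.72% of all genes), Asxl1 (-1.70). Relative to each library's T>C reads, 3 fell at 8 h and 4 at 24 h, against 3.37% and 6.68% of all genes. In RBBP5–FKBP cells 2 of 19 fell at 8 h (7.52% of all genes), Rbbp7 (-1.69) and Mga (-1.42), and 6 at 24 h (25.9%), among them Asxl1 (-2.24), Asxl2 (-1.82) and Cbx6 (-1.80). Relative to T>C reads, 0 of 19 passed by edgeR at either time (2 and 3 at an unadjusted p below 0.05; DESeq2 was not run on that scale). In dKO cells 1 of 21 fell at 8 h (1.12% of all genes), Cbx6 (-0.87). At 24 h 9 fell and at 48 h 17, where 42.2% and 72.3% of all genes were called lower, so that these counts were near the background. Relative to T>C reads 1 fell at each of the 2 times. Among the genes that fell at 48 h were Bcorl1 (-2.80), Cbx6 (-2.67) and Pcgf2 (-2.19). Asxl1 belongs to the H2A deubiquitinase complex, and Epop and Mga to forms of PRC2 and PRC1. In total RNA of DPY30–mAID cells at 24 h, 13 of 31 fell, against 17% of all genes, among them Cbx2 (-1.84), Asxl1 (-1.79) and Bcor (-1.37), and 1 rose, Phc1 (0.32), with medians of -0.40 over the list and 0.01 over all genes. At 8 h, 4 fell and 1 rose (7.85% and 5.32% of all genes). In total RNA of RBBP5–FKBP cells, 4 of 31 fell and 1 rose at 8 h (4.96% and 4.2%), and 1 fell and 1 rose at 24 h (4.34% and 3%), with a list median of 0.03. In dKO cells 2 of 32 fell and 2 rose at 24 h (6.02% and 5.15%), and 3 fell and 1 rose at 48 h (7.93% and 6.59%), with medians of 0.07 and 0.02.

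In RA with DMSO, 33 listed genes were tested, and those with a mean under 10 reads in either group compared (6 at day 1 and 5 at day 4) were set aside, since their calls follow in part from the filter. Of the others, 14 of 27 fell and 3 rose at day 1, where 25.5% of all genes were called lower and 26.2% higher. At day 4, 8 of 28 fell and 9 rose, where 25.6% and 28.7% were called, with a list median of 0.09 against 0.06 over all genes. By day 4, Phc1, a canonical PRC1 subunit, fell by 1.63. With auxin against DMSO, 4 of 29 rose at day 1 (4.27% of all genes), among them Epop (1.37) and L3mbtl2 (0.83). At day 4, 5 of 32 fell (10.4%), among them the PRC1 subunits Bmi1 (-0.94) and Pcgf2 (-0.69), and 2 rose (7.78%), Pcgf5 (1.12) and Epop (0.45). Over all 33 genes, DESeq2 called 2 lower and 1 higher with auxin at day 4, where edgeR called 5 and 2. With DMSO at day 1 it called 10 lower, where edgeR called 15.

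A list of 20 developmental genes that Polycomb is known to repress in mES cells, of which 19 were measured, was read in the same fits. In SLAM-seq at most 5 had enough reads to be tested in DPY30–mAID and RBBP5–FKBP cells, and 14 in total RNA of dKO cells. In total RNA of DPY30–mAID cells, 1 of 5 fell at 8 h, Meis2 (-0.92), and 1 of 5 at 24 h, Eomes (-2.35). At those times 7.85% and 17% of all genes were called lower. In RBBP5–FKBP cells 1 of 4 fell at 8 h, Eomes (-1.90), against 4.96% of all genes. In dKO cells 2 of 14 fell at 24 h, Eomes (-0.89) and Cdx2 (-1.41), where 6.02% of all genes were called lower. At 48 h Meis2 rose (1.30), where 6.59% were called higher. For Cdx2 at 48 h no call is drawn, since its mean was under 10 reads in a group compared. In nascent RNA, Meis2, the 1 gene of the list tested in DPY30–mAID cells, fell at 8 h (-1.68), where 16.1% of all genes were called lower. In dKO cells at 24 h, 1 of 4 fell, Gata6 (-1.92), where 42.2% were called lower, and DESeq2 called 0. Both genes had few T>C reads, and neither call passed relative to each library's T>C reads. Between the untreated lines 10 of the 14 had a mean under 10 reads in 1 line or both, and no count is given. In RA, 15 were tested, and 13 of these had a mean under 10 reads at 0 h. They therefore passed the filter only through later groups in which they were high, and no count or fold against 0 h is given. For the same reason none is given for them with auxin against DMSO. The other 2 were Eomes and Cdkn2a. Eomes, a regulator of mesendoderm, fell with auxin by 1.68 at day 2 (adjusted p = 0.00591) and by 1.31 at day 4 (adjusted p = 0.00646), where 7.39% and 10.4% of all genes were called lower. Cdkn2a, which encodes cell cycle inhibitors, rose by 0.44 at day 4 (adjusted p = 0.0391), where 7.78% were called higher. DESeq2 called fewer genes of the list than edgeR at both days, and its result for these 2 genes is not given here.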

How the data were processed

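For 58 libraries, the authors deposited tables of counts per 3′ UTR interval made with SlamDunk 0.3.4 (per the file headers): all reads, T>C reads, T covered and conversions, aligned to GRCm38 with the vM14 annotation, without UMIs. The submitters' notes also name HISAT2 2.2.1, featureCounts, cutadapt, Trim Galore and bcl2fastq. Counts of reads were summed per Ensembl identifier (46420 intervals, 20177 genes) and named from a GENCODE annotation. Groups came from the labels, and 57 libraries were used, since 1 pair was identical.

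Genes whose mean reached 10 reads in 1 or more groups of a fit were tested with edgeR 4.0.16 (R 4.3.3; TMM, quasi-likelihood F test, two-sided, Benjamini–Hochberg over all genes tested, threshold 0.05). All groups of a line and assay shared 1 fit; SE is the log2 change divided by the square root of F. T>C reads were scaled on the library's total reads and its TMM factor, with T>C reads alone as an alternative. Line differences were interaction terms. DESeq2 1.42.0 was an alternative, with other filters, intervals, pairs of groups only, a replicate block and left-out libraries. Ratios used a pseudocount of 0.5 CPM and exact permutation tests in scipy 1.17.1 (Python 3.11.15). Promoters came from RefSeq (GRCm38.p6). All members are named; of the other lists, from among the 3 largest changes that passed in each direction of a comparison, with 1 gene not reported here. The members and lists were chosen with earlier results of these data known. On simulated data the fits recovered fewer of the changed genes for differences between the lines' effects than for changes within a line. Library depth (1264241 to 7792404 reads) limits the genes with few reads.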

Additional observations from a re-analysis of the deposited data

Results flagged for a closer look

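The effect of the ligand on nascent RNA differed between lines for 3 members by the interaction term of edgeR's quasi-likelihood test. For Jarid2 the 8 h effect was higher in Kdm5a/b dKO than in DPY30–mAID cells by 1.53 on the log2 scale (adjusted p = 0.0298), where 0.275% of all genes were called higher and their median difference was 0.49. For Mtf2 the 24 h effect was lower in RBBP5–FKBP than in DPY30–mAID cells, with a log2 difference of -1.87 (adjusted p = 0.00100). For Ezh2 the 24 h effect was lower in RBBP5–FKBP cells as well, with a log2 difference of -1.52 (adjusted p = 0.0481). At 24 h 8.17% of all genes were called lower and their median difference was -0.64. Relative to T>C reads the Ezh2 call was lost (-0.87, adjusted p = 0.35). The Jarid2 and Ezh2 differences lost their call without single libraries, with adjusted p up to 0.365 and 0.132, and that of Mtf2 did not.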

How the results depend on the processing

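Over 37 comparisons the members had 73 calls (that of Ring1 at DMSO day 4, from which nothing is drawn, included), of which 43 held with any 1 library left out and 30 were lost at least once. DESeq2 kept 67 of them, and the replicate block 69. The replicate numbers did not pair the samples: same-numbered libraries had a mean correlation near 0.

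Counts of members called are listed where they moved by more than 1.5 times. Fits of the groups compared alone gave 1 for nascent DPY30–mAID and RBBP5–FKBP RNA at 2 h, 0 and 1 for total RBBP5–FKBP RNA at 8 h and 24 h, 0 for total dKO RNA at 48 h, and 2 for auxin at days 1 and 4. DESeq2 gave 1 for nascent RBBP5–FKBP RNA at 2 h, 5 for its total RNA at 24 h, 2 for dKO minus DPY30–mAID at 8 h and 3 for DMSO day 2, with smaller moves to 5 for nascent dKO RNA at 24 h, 3 for DMSO 8 h and 4 for DMSO day 4. A group mean of 50 gave 1, 2 and 4 for nascent RBBP5–FKBP RNA at 2 h, dKO minus DPY30–mAID at 8 h and RBBP5–FKBP minus DPY30–mAID at 24 h. No low-count filter gave 3 and 2 for total dKO RNA at 24 h and 48 h and 1 for RBBP5–FKBP minus DPY30–mAID at 24 h. The replicate block gave 1 for total RBBP5–FKBP RNA at 24 h, 2 for total dKO RNA at 24 h and 48 h and 1 for RBBP5–FKBP minus DPY30–mAID at 24 h, where the main counts were 3, 1, 1 and 2.

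The interval with the most reads gave 1 for total RBBP5–FKBP RNA at 8 h, 2 for total dKO RNA at 24 h and 1 for RBBP5–FKBP minus DPY30–mAID at 24 h, and reversed untreated Mtf2 to 0.42. The most 3′ interval, chosen after seeing the data, gave 3 and 3 for nascent RBBP5–FKBP RNA at 8 h and 24 h, 1 for its total RNA at 8 h and 0 for RBBP5–FKBP minus DPY30–mAID at 24 h, where Mtf2 had too few reads in that interval to be tested. Scaling on T>C reads gave 3 for DPY30–mAID at 24 h, 0 and 1 for RBBP5–FKBP at 8 h and 24 h, 0 and 0 for dKO at 24 h and 48 h, 1 for dKO minus DPY30–mAID and 1 for RBBP5–FKBP minus DPY30–mAID at 24 h. It reversed Suz12 (0.25) and Eed (0.24) in dKO at 24 h and Suz12 (0.23), Mtf2 (0.27), Eed (0.46) and Jarid2 (0.018) at 48 h. The cause was not tested.

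Asking also for a log2 change beyond 1 left 2 for nascent RNA of RBBP5–FKBP at 8 h and of dKO at 24 h, 0 and 1 for total DPY30–mAID RNA at 8 h and 24 h, 0 for total RBBP5–FKBP RNA at both times and total dKO RNA at 24 h and 48 h, 2 for the untreated lines, 0, 1, 0 and 2 for DMSO at 8 h and days 1, 2 and 4, and 0 for auxin at days 1, 2 and 4. With 1 library left out, counts ranged from 2 to 3 for nascent RBBP5–FKBP RNA at 8 h, 3 to 6 for nascent dKO RNA at 24 h, 0 to 3 and 1 to 2 for total RBBP5–FKBP RNA at 8 h and 24 h, 0 to 1 and 0 to 2 for total dKO RNA at 24 h and 48 h, 0 to 5 for dKO minus DPY30–mAID at 8 h, 0 to 1 and 1 to 2 for RBBP5–FKBP minus DPY30–mAID at 8 h and 24 h, 0 to 2, 3 to 5 and 3 to 5 for DMSO at 8 h, day 2 and day 4, and 0 to 1 for auxin at days 1, 2 and 4.

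Ratios are listed where they moved by more than 1 SD of the libraries. The log2 difference of the Ezh1 to Ezh2 ratio moved to -0.74, -0.14, 0.15, 0.44 and 0.044 with the top interval (RBBP5–FKBP 2 h, dKO 2 h, 24 h and 48 h, DMSO day 4) and to 0.58, -0.67, -0.069, 0.45, -0.55 and 0.32 with the most 3′ interval (DPY30–mAID 24 h, RBBP5–FKBP 2 h, dKO 2 h and 48 h, DMSO 8 h, auxin 8 h). The Ring1 to Rnf2 ratio with a pseudocount of 5 CPM moved to 0.11, 0.22, 0.57, 0.34 and 0.40 (dKO 2 h and 8 h, DMSO 8 h, days 1 and 4). Within that spread, other values changed too: of 19 differences per ratio, sign changes, listed ones included, numbered 4 for Ezh1 to Ezh2 with either interval and 6 for Ring1 to Rnf2 with the pseudocount.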

Other observations

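At day 6 of RA, where DMSO gave 1 sample and no test was made, Jarid2 was at 696.2 CPM with DMSO and at 1113 and 1361 CPM with auxin. Mtf2 was at 94.3 CPM with DMSO against 159 and 212 with auxin, and Suz12 at 187 against 313 and 312. Eed was at 144 CPM with DMSO and at 237 and 177 with auxin. Rnf2 was at 191 CPM with DMSO, between the auxin libraries at 230 and 159.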
